A study of Homo sapiens with 16 samples.

Results

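Homeobox, paired-box, T-box, SOX, forkhead, bHLH and zinc-finger genes that direct embryonic patterning were followed in Molm14, a human leukaemia line of myeloid origin that carries a rearranged KMT2A gene. The genes were the protein-coding rows of the expression table with a symbol made of one of 24 family prefixes (PAX, DLX, LHX, NKX, TBX, SOX, FOXC, FOXD, FOXE, FOXF, FOXL, TFAP2, POU3F, EN, OTX, IRX, MSX, NEUROD, NEUROG, BHLHE, HAND, TWIST, ZIC and that of SIX2) and a short suffix of digits, a hyphen or the letters A to E. Of 22445 rows, 80 met this rule, from 22 of the families, and the annotation (GENCODE 29, on GRCh38) holds 128 such genes. The other 48 were not analysed here. Cells had been treated for 7 days, with medium and compound renewed on day 4. The groups were iDOT1L (0.16 uM EPZ5676, an inhibitor of DOT1L), iEZH2 (0.3 uM GSK126, an inhibitor of EZH2), Combo (both compounds) and DMSO (the vehicle). Each group held 4 RNA-seq libraries of the same line. Nothing in the labels tells separate cultures from repeat preparations of one culture, so the spread behind each p-value may be technical.

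These families encode DNA-binding proteins that set up body axes, organs and cell types in the embryo, and most of them are silent in blood cells. In many cell types their genes lie in CpG-rich regions under Polycomb repressive complex 2 (PRC2), in which EZH2 methylates histone H3 at lysine 27, a mark of repression. DOT1L methylates lysine 79 of the same histone in transcribed gene bodies, and KMT2A fusion proteins recruit it to their targets. A family may hold members with quite different roles, such as PAX5, which commits cells to the B lineage, and PAX6, which directs eye and brain development.

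The promoters of 6 changing members are shown, some from genes that rose and some from genes that fell. They were taken among members with an entry in RefSeq's promoter table (GRCh38.p14). Their order is that of the lowest limma adjusted p against DMSO with iEZH2 or Combo. BHLHE22 (limma adjusted p = 3.85e-05 with Combo against DMSO), which had a lower adjusted p than FOXD4, was left out of this choice. The 6 therefore do not include the largest rise with Combo and are not a full ranking. Each run gives the 250 bases before the first listed start site, 5′ to 3′ on the gene's strand, and capitals mark CG dinucleotides, which read the same on both strands.
FOXD1 (chr5:73448778-73449027, minus strand): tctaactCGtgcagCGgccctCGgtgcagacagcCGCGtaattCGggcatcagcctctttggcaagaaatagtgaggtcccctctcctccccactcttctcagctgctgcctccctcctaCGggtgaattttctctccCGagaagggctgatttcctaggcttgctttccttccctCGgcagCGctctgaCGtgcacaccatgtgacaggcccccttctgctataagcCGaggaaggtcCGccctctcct
FOXD4 (chr9:118418-118667, minus strand): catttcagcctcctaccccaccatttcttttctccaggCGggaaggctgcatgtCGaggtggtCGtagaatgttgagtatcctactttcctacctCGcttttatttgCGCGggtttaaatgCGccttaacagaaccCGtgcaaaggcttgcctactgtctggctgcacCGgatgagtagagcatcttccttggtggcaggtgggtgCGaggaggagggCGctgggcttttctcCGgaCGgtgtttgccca
PAX6 (chr11:31817962-31818211, minus strand): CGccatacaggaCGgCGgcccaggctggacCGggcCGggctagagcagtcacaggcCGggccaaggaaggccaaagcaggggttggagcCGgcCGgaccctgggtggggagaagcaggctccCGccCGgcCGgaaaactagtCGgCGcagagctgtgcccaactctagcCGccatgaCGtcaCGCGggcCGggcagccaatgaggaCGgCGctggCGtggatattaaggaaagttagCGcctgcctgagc
FOXF2 (chr6:1389326-1389575, plus strand): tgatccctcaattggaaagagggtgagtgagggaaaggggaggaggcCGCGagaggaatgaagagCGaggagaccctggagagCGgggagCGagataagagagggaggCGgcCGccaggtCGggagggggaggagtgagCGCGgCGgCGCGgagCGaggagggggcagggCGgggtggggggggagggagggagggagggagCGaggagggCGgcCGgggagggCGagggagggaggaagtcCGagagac
DLX2 (chr2:172102901-172103150, minus strand): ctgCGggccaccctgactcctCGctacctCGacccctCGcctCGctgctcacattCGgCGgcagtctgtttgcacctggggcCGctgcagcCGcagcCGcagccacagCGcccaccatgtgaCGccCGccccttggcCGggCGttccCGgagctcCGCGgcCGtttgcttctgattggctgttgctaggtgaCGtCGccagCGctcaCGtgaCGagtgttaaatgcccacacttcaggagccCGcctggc
DLX6 (chr7:97005303-97005552, plus strand): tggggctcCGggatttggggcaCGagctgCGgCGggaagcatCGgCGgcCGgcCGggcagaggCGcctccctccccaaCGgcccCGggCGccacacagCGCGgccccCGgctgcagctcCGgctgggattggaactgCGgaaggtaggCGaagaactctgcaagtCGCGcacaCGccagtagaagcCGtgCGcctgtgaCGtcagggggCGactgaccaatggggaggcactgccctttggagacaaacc
FOXD1, FOXD4, DLX2 and DLX6 fell with Combo, and PAX6 and FOXF2 rose. The windows held 13 CG dinucleotides for FOXD1, 13 for FOXD4, 22 for PAX6, 20 for FOXF2 and 25 each for DLX2 and DLX6. Over the 55 members with an entry the median was 22 (range 2 to 42), against 19 over 12810 protein-coding genes of the table (range 0 to 59). At least 10 CG dinucleotides were found in 92.7% of the members' windows and in 76.0% of all, and at least 1 in 100% and 98.3%. Windows rich in CG were found beside members that rose and beside members that fell, and in most of the protein-coding genes with an entry. TWIST1, TFAP2C, BHLHE22 and DLX5 are described by their values only.

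Levels are given as normalised counts, which were recovered from the deposited log2 values. The libraries held an estimated 20679059 to 27370787 reads each. The 13 myeloid leukaemia markers were all detected in every library, and their summed level was 50344 to 55289.5 with iDOT1L, 34198 to 41245 with iEZH2, 49188 to 56746 with Combo and 39961 to 46002 in DMSO. This sum covers opposite changes. The means of LYZ and MPO were 15958 and 5237 with Combo and 2463 and 862 in DMSO. Those of FLT3, CD68, ITGAM and MEIS1 were 3464, 586, 219 and 722 with Combo and 9243, 1425, 991 and 1582 in DMSO. Of 8 neural markers, the neural adhesion gene NCAM1 was the most abundant, and the summed level was 3764 to 4320.1 with iDOT1L, 3315 to 4334 with iEZH2, 2539.9 to 3447 with Combo and 3835 to 4506 in DMSO. Most of this sum was NCAM1, which averaged 3692 with iDOT1L, 3534 with iEZH2, 2656 with Combo and 3872 in DMSO. The sum is thus mainly a reading of that gene. The summed level of 6 fibroblast markers was 151 to 283 with iDOT1L, 114 to 316 with iEZH2, 337 to 385 with Combo and 103 to 153 in DMSO, and the group means of LUM, DCN, COL1A1 and PDGFRA were highest with Combo, while those of COL1A2 and COL3A1 were lower with Combo than in DMSO. The summed level of 5 epithelial markers, mostly KRT18 and KRT8, was 591 to 818 with iDOT1L, 1124 to 1311 with iEZH2, 783 to 1066 with Combo and 1033 to 1405 in DMSO. The epithelial marker KRT19 and the germ cell marker DDX4 stayed under 5 in every library. The compounds block enzymes rather than transcripts. DOT1L averaged 6499.9 ± 861 with iDOT1L and 6796 ± 101 in DMSO, and EZH2 2267 ± 284 with iEZH2 and 1906 ± 221 in DMSO (SD, n = 4 each). In bulk RNA, fewer cells with a transcript and less of it per cell cannot be told apart.

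Several developmental factors were well expressed in DMSO-treated cells. Averaged over the 16 libraries, 6 members had a level of at least 1000 normalised counts, 24 lay between 100 and 1000, 21 between 10 and 100, and 29 below 10. Per kilobase of merged exons, the highest mean levels in DMSO were those of IRX3, a patterning factor of the neural tube (1925 normalised counts per kilobase), BHLHE40, a repressor induced by stress and cytokines (840.4), DLX5, a homeobox factor of bone and forebrain (624), and FOXD1, a forkhead factor of the kidney stroma (612). ZIC2, a factor of forebrain development, and SOX4, which is active in many progenitors, followed at 454 and 400.1. All 80 members passed the filter on low values (above 1 normalised count in at least 4 libraries), and 31 of them were called, without pairing of replicates, in at least 1 of 7 comparisons by limma at a Benjamini-Hochberg (BH) adjusted p under 0.05 over 22331 genes. Fold changes are on the log2(normalised count + 1) scale, which understates those of low genes, and errors of fold changes are SE. Calls were made for 3 of the 6 members over 1000, 18 of the 24 between 100 and 1000, 7 of the 21 between 10 and 100 and 3 of the 29 below 10. The matching shares over all genes, in any comparison or by level, were not counted, so no trait of the members is read from these counts.

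**Figure D1:**
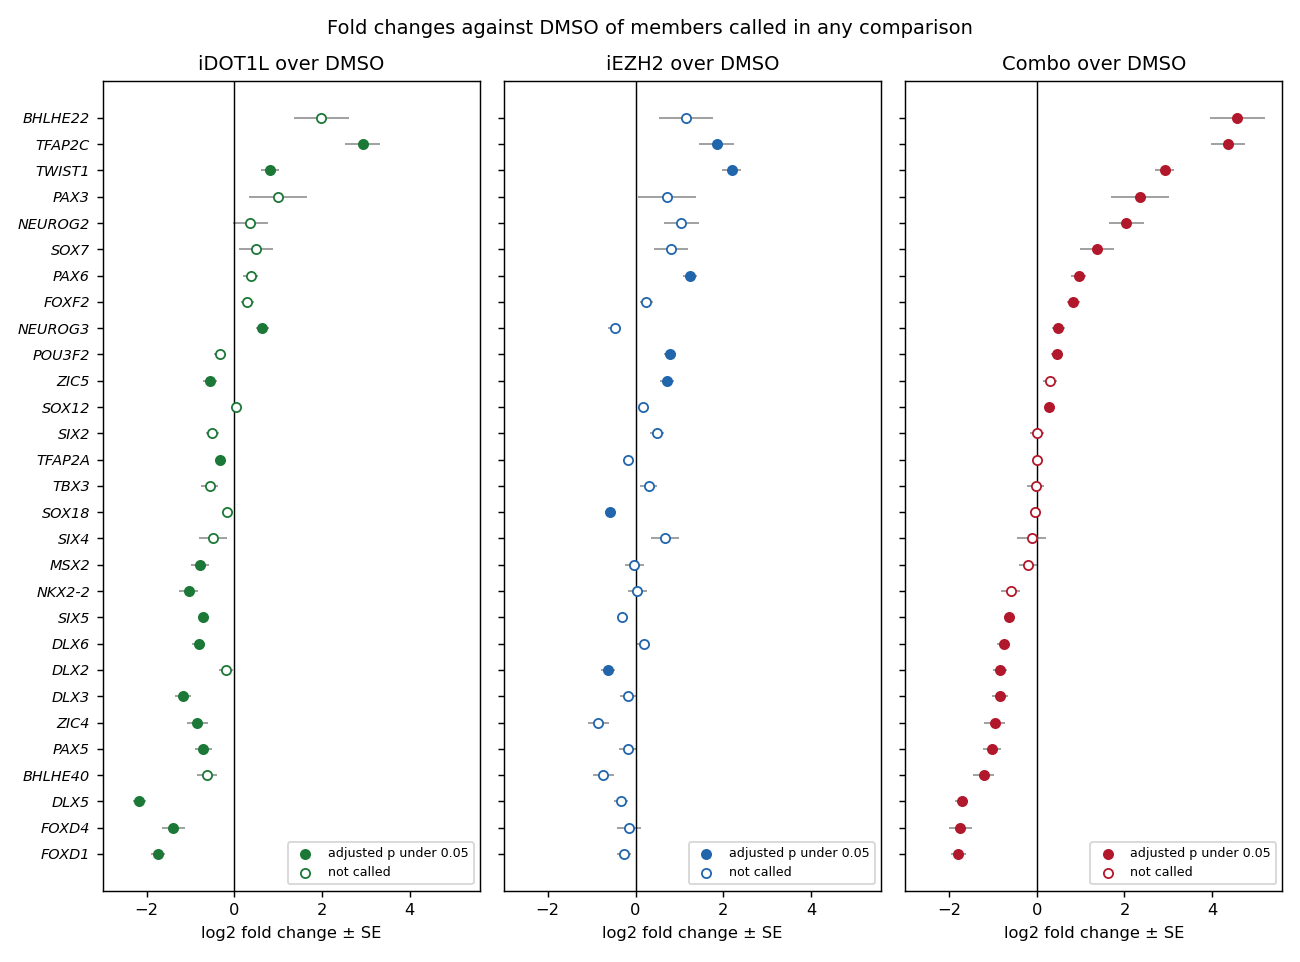
Log2 fold change with its SE (horizontal axis) of 29 of the 31 members called in any comparison (rows, ordered by the Combo value), over DMSO for iDOT1L, iEZH2 and Combo, 4 libraries per group, with filled points for an adjusted p under 0.05. TFAP2C and TWIST1 are filled on the right in all 3 panels, while DLX5 and FOXD1 are filled on the left with iDOT1L and Combo.

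With iDOT1L, more members fell than rose. Of 80 members, 12 were called lower, 3 higher and 65 were not called, against 3.17% lower and 3.08% higher among all genes tested. The median log2 fold change of the members was -0.04, beside 0.01 over all genes. The falls were those of 3 DLX, 2 FOXD and 2 ZIC genes with NKX2-2, MSX2, SIX5, PAX5 and TFAP2A, and the rises those of TFAP2C, NEUROG3 and TWIST1. The number called lower was 7 without iDOT1L 3 or DMSO 4.

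DLX5 (ENSG00000105880, chr7:97020392-97024950, GRCh38) showed the deepest fall. Its level was 232, 236, 219 and 282 normalised counts in the 4 iDOT1L libraries, against 1106, 921, 1176 and 1159 in DMSO (log2 fold change -2.16 ± 0.15 SE, limma adjusted p = 1.99e-07). All iDOT1L libraries lay below all DMSO libraries. Its neighbour DLX6 (ENSG00000006377, chr7:97005548-97011039), which acts with DLX5 in jaw, limb and interneuron development, had 152, 175, 199 and 162 with iDOT1L and 287, 334, 264 and 322 in DMSO (log2 fold change -0.81 ± 0.15 SE, limma adjusted p = 0.00165). DLX3, a factor of placenta and epidermis, had 234, 174, 156 and 229 with iDOT1L and 406, 431, 447 and 476 in DMSO (log2 fold change -1.17 ± 0.18 SE, limma adjusted p = 0.000341). Again neither gene's groups overlapped. Of the other DLX genes, none passed with iDOT1L. DLX1 and DLX2, which specify forebrain interneurons, differed from DMSO by 0.24 and -0.18, and DLX4 by -0.29.

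FOXD1 (ENSG00000251493, chr5:73444827-73448527) had 529, 427, 418 and 566 normalised counts with iDOT1L, against 1432, 1665, 1501 and 1821 in DMSO (log2 fold change -1.73 ± 0.16 SE, limma adjusted p = 4.59e-06), and the groups were far apart. Some reads of FOXD1 cannot be assigned by sequence, since 17.9% of the 31-base stretches (words) of its exons are found in another gene too, 14.2% in its antisense gene FOXD1-AS1, and the strand setting of the counting is not given in the sources used here. FOXD4, a forkhead gene at the end of chromosome 9, averaged 29.9 ± 8.30 with iDOT1L and 77.9 ± 8.24 in DMSO (log2 fold change -1.39 ± 0.26 SE, limma adjusted p = 0.00246). Its level is uncertain, because 76.8% of its words are shared, mainly with its copy FOXD4L1. FOXD2 was not called (0.07).

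Several of the other falls were not called when 1 library was left out. NKX2-2, a factor of the ventral neural tube and of oligodendrocytes, averaged 30.8 ± 8.47 with iDOT1L and 62.98 ± 7.54 in DMSO (log2 fold change -1.04 ± 0.22 SE, limma adjusted p = 0.0055), and 28.1% of its words are shared with its antisense gene NKX2-2-AS1, which makes the level uncertain. SIX5, a homeobox gene of lens and muscle, averaged 207 ± 21.9 with iDOT1L and 342 ± 36.1 in DMSO (log2 fold change -0.72 ± 0.12 SE, limma adjusted p = 0.000575), and is uncertain for the same reason (55.7% shared, mainly with AC074212.1). PAX5 averaged 672 ± 101 with iDOT1L and 1099.6 ± 193 in DMSO (log2 fold change -0.71 ± 0.20 SE, limma adjusted p = 0.0383). It was not called without iDOT1L 2, 3 or 4 or DMSO 1, 2 or 4 (highest adjusted p = 0.12). The same holds for 4 more members that were called with all 16 libraries. MSX2, a homeobox factor of skull and limb, fell by 0.77 but was not called without iDOT1L 1, 3 or 4 or DMSO 3 or 4 (highest adjusted p = 0.115). ZIC4, a zinc-finger factor of the cerebellum, fell by 0.85 but was not called without iDOT1L 2, 3 or 4 or DMSO 1, 3 or 4 (highest adjusted p = 0.154). ZIC5, a factor of neural crest and forebrain, fell by 0.56 but was not called without iDOT1L 1 or 3 or DMSO 1, 2 or 4 (highest adjusted p = 0.118). TFAP2A, which directs neural crest and epidermis, fell by 0.33 but was not called without iDOT1L 2, 3 or 4 or DMSO 1, 3 or 4 (highest adjusted p = 0.111), nor after the libraries were re-centred (adjusted p = 0.0673 on their medians).

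Among the rises, TFAP2C (ENSG00000087510, chr20:56629302-56639283), a factor of trophoblast and germ cells, had 35.9, 27.9, 31.2 and 37.9 normalised counts with iDOT1L, against 6.40, 5.42, 3.30 and 0.983 in DMSO (log2 fold change 2.92 ± 0.39 SE, limma adjusted p = 0.000105). Every iDOT1L library lay above every DMSO library. NEUROG3, which specifies endocrine cells of the pancreas and gut, had 493, 421, 441 and 439.9 with iDOT1L and 279.8, 269, 316 and 293 in DMSO (log2 fold change 0.63 ± 0.15 SE, limma adjusted p = 0.0125), again without overlap. TWIST1 (ENSG00000122691, chr7:19020991-19117672), a bHLH factor of mesoderm and neural crest, had 42.3, 64.5, 63.5 and 63.9 with iDOT1L and 29.7, 27.2, 40.6 and 33.4 in DMSO (log2 fold change 0.82 ± 0.21 SE, limma adjusted p = 0.0266). TWIST1 was not called without iDOT1L 2, 3 or 4 or DMSO 1, 2 or 4 (highest adjusted p = 0.0824), nor on the deposited log2 scale (adjusted p = 0.14). When replicate number was added to the model as a pairing, 4 more members were called. Shares over all genes were not counted in that fit, so the gain is not read as a trait of the members. BHLHE40 (paired adjusted p = 0.000181, limma), TBX3 (adjusted p = 0.0119) and SIX2 (adjusted p = 0.0123) were then lower with iDOT1L, and BHLHE22 (adjusted p = 0.0445) was higher.

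**Figure D2:**
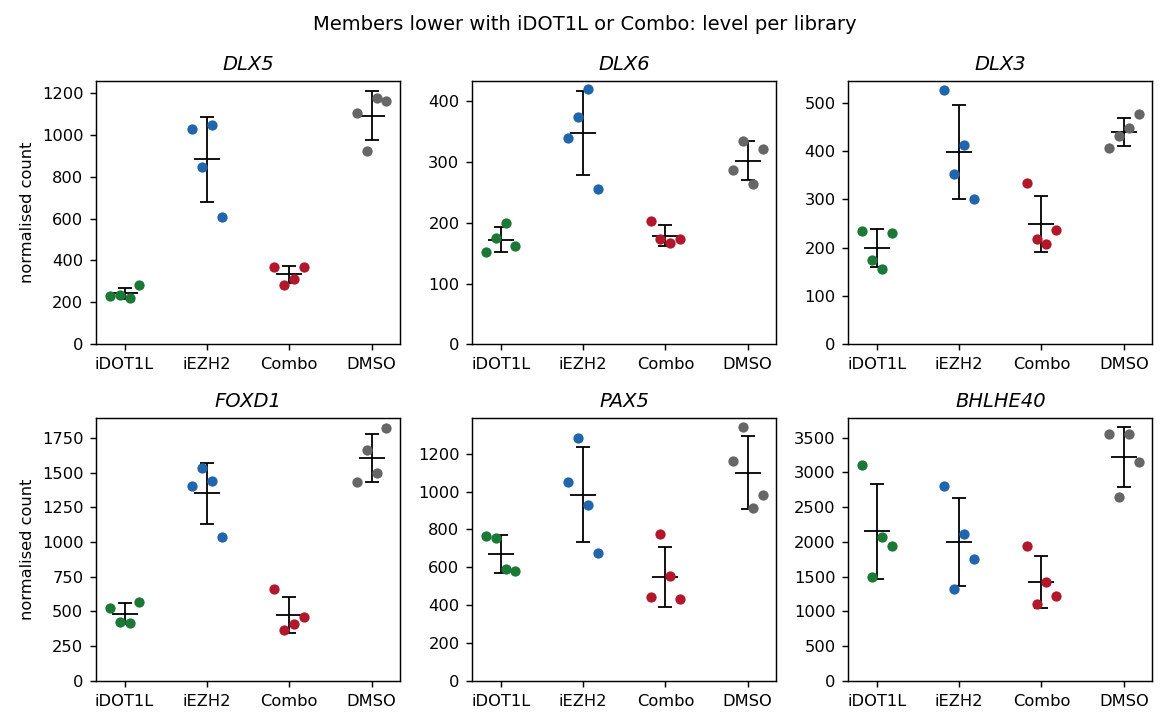
Normalised counts (vertical axis, from 0) of 6 members in each library by group, with the group mean and SD. DLX5, DLX6, DLX3 and FOXD1 are low with iDOT1L and Combo and near the DMSO level with iEZH2, and BHLHE40 averages 1421 with Combo and 3225 in DMSO.

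With iEZH2, fewer members changed and most of them rose. Of 80 members, 6 were called higher, 2 lower and 72 were not called, against 1.3% higher and 2.05% lower among all genes. The members' median was 0.05 and that of all genes 0.02. The rises included those of TWIST1, TFAP2C, PAX6, POU3F2 and ZIC5, and the falls were those of SOX18 and DLX2. The number called lower was 5 without DMSO 2 and 1 without iEZH2 2, iEZH2 3, DMSO 1, DMSO 3 or DMSO 4.

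TWIST1 had 147, 114, 143 and 221 normalised counts with iEZH2, against 29.7, 27.2, 40.6 and 33.4 in DMSO (log2 fold change 2.19 ± 0.21 SE, limma adjusted p = 4.59e-05). The lowest iEZH2 library was well above the highest DMSO library. The fibroblast marker sums given above overlapped between these groups, and their part in the rise was not tested. PAX6 (ENSG00000007372, chr11:31784779-31818062) had 206, 227, 229 and 239 with iEZH2 and 72.3, 130.5, 95.3 and 88.8 in DMSO (log2 fold change 1.24 ± 0.16 SE, limma adjusted p = 0.00038), with no overlap. Its level is uncertain, as 24.8% of its words are shared, 23.9% with the neighbouring gene ELP4. POU3F2 (ENSG00000184486, chr6:98834592-98839470), a POU factor of neural progenitors and of the hypothalamus, had 225, 225, 233 and 257 with iEZH2 and 112, 155, 142 and 141 in DMSO (log2 fold change 0.78 ± 0.14 SE, limma adjusted p = 0.0039), also without overlap.

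TFAP2C had 22.5, 12.05, 7.52 and 24.96 normalised counts with iEZH2, against 6.40, 5.42, 3.30 and 0.983 in DMSO (log2 fold change 1.85 ± 0.39 SE, limma adjusted p = 0.0114). ZIC5 had 216, 191, 176 and 171 with iEZH2 and 117, 134, 88.2 and 122 in DMSO (log2 fold change 0.72 ± 0.16 SE, limma adjusted p = 0.0138). It was not called without DMSO 3 (highest adjusted p = 0.0617). SOX18, a factor of endothelial and lymphatic development, was the clearest fall. It had 349.6, 377, 379.7 and 398 with iEZH2 and 501, 571, 587 and 602 in DMSO (log2 fold change -0.59 ± 0.10 SE, limma adjusted p = 0.00274), without overlap. DLX2 averaged 79.97 ± 5.004 with iEZH2 and 124 ± 12.5 in DMSO (log2 fold change -0.63 ± 0.16 SE, limma adjusted p = 0.0314), and was not called without iEZH2 1, 2, 3 or 4 or DMSO 1, 3 or 4 (highest adjusted p = 0.115). Several members high in this line were not called with iEZH2. DLX5 differed by -0.33, FOXD1 by -0.26 and PAX5 by -0.18 on the log2 scale. Each of these genes was lowest of its group in iEZH2 4, a library that enters these values. With replicates paired, SIX2 (adjusted p = 0.0163, limma), SIX4 (adjusted p = 0.0475) and TBX2 (adjusted p = 0.0473) were called higher as well. BHLHE40 (adjusted p = 7e-05), ZIC4 (adjusted p = 0.0102), TBX6 (adjusted p = 0.0321) and NEUROG3 (adjusted p = 0.042) were called lower, which made 6 members lower in all. Shares over all genes were not counted with pairing.

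**Figure D3:**
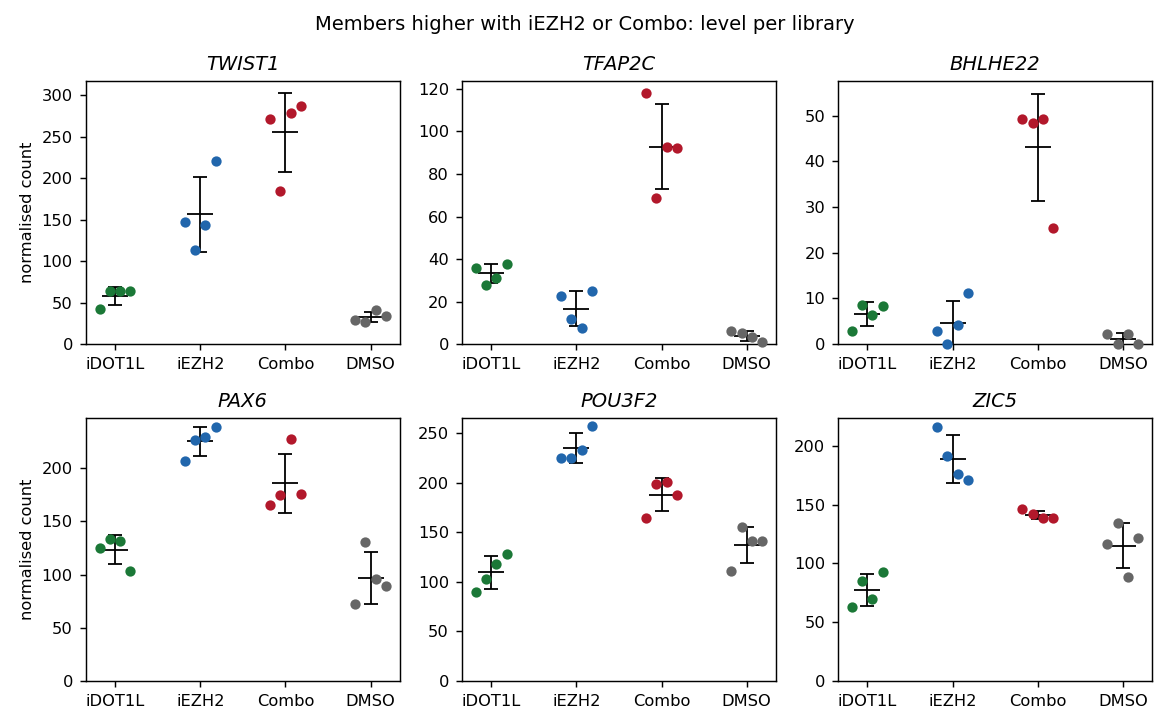
Normalised counts (vertical axis, from 0) of 6 members in each library by group, with the group mean and SD. TWIST1, TFAP2C and BHLHE22 are highest with Combo, whereas PAX6, POU3F2 and ZIC5 average 225, 235 and 189 with iEZH2, above their Combo means.

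With Combo, rises and falls were about equal in number. Of 80 members, 12 were called higher, 10 lower and 58 were not called, against 7.22% higher and 8.8% lower among all genes. The share of the members was 15% higher and 12.5% lower. This comparison shares its 4 DMSO libraries with those of the single inhibitors. The members' median was 0.12, beside 0.03 over all genes. The largest rises were those of BHLHE22, TFAP2C and TWIST1, and the deepest falls those of FOXD1, FOXD4 and DLX5.

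BHLHE22 (ENSG00000180828, chr8:64580367-64583628), a repressor of retinal and cortical neurons, was almost silent in DMSO. It had 49.2, 48.3, 49.3 and 25.4 normalised counts with Combo, against 2.17, 0, 2.23 and 0 in DMSO (log2 fold change 4.57 ± 0.62 SE, limma adjusted p = 3.85e-05). Since the DMSO level is a few reads, the fold depends on the constant added before the logarithm, and with 5 in place of 1 it was 2.96. TFAP2C had 118, 68.8, 92.7 and 92.4 with Combo and 6.40, 5.42, 3.30 and 0.983 in DMSO (log2 fold change 4.36 ± 0.39 SE, limma adjusted p = 5.35e-07), or 3.46 with the larger constant. TWIST1 had 271, 185, 279 and 287 with Combo and 29.7, 27.2, 40.6 and 33.4 in DMSO (log2 fold change 2.92 ± 0.21 SE, limma adjusted p = 8.9e-08). In all 3 genes the lowest Combo library lay far above the highest DMSO library. The fibroblast marker sums also did not overlap between these groups, and their part in these rises was not tested.

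The other rises with Combo included neuronal and mesenchymal factors. NEUROG2, which starts neuron formation, had 12.6, 27.7, 18.8 and 19.6 with Combo and 3.26, 3.30, 3.35 and 5.99 in DMSO (log2 fold change 2.04 ± 0.40 SE, limma adjusted p = 0.0014). PAX6 had 165, 175, 227 and 176 with Combo and 72.3, 130.5, 95.3 and 88.8 in DMSO (log2 fold change 0.96 ± 0.16 SE, limma adjusted p = 0.000432). FOXF2, a forkhead factor of gut and palate mesenchyme, had 184, 147, 173 and 156 with Combo and 82.5, 109, 103 and 76.9 in DMSO (log2 fold change 0.83 ± 0.15 SE, limma adjusted p = 0.000562). None of these groups overlapped. POU3F2 rose by 0.46 ± 0.14 (limma adjusted p = 0.032) and was not called without Combo 2, 3 or 4 or DMSO 1, 3 or 4 (highest adjusted p = 0.116). NEUROG3 rose by 0.50 ± 0.15 (adjusted p = 0.0271) and was not called without Combo 1 or 3 or DMSO 1, 2 or 4 (highest adjusted p = 0.0791). SOX12, a SOX factor close to SOX4, rose by 0.27 ± 0.07 (adjusted p = 0.0153) and was not called without DMSO 3 (highest adjusted p = 0.0561).

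SOX7 and PAX3 also rose, both from low levels. SOX7, a factor of early endothelial and blood progenitors, averaged 18.2 ± 4.41 with Combo and 6.80 ± 3.72 in DMSO (log2 fold change 1.37 ± 0.38 SE, limma adjusted p = 0.0184). It was not called without Combo 2 or 3 or DMSO 4 (highest adjusted p = 0.0611), and 42.4% of its words are shared, mainly with PINX1, so its level is uncertain. PAX3, a factor of neural crest and muscle progenitors, had 12.7, 7.45, 9.01 and 9.07 with Combo and 1.37, 0, 2.42 and 1.08 in DMSO (log2 fold change 2.36 ± 0.66 SE, limma adjusted p = 0.0197). It was not called without Combo 1 or DMSO 2 (highest adjusted p = 0.064). PAX3 thus rests on a few reads per library.

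Among the falls, FOXD1 had 659.9, 370.1, 411 and 459 normalised counts with Combo, against 1432, 1665, 1501 and 1821 in DMSO (log2 fold change -1.78 ± 0.16 SE, limma adjusted p = 5.35e-07), and DLX5 had 369, 282, 312 and 368 with Combo, against 1106, 921, 1176 and 1159 in DMSO (log2 fold change -1.71 ± 0.15 SE, limma adjusted p = 4.87e-07). FOXD4, uncertain through its copies, had 18.3, 23.6, 27.8 and 21.5 with Combo and 67.3, 77.1, 87.2 and 79.9 in DMSO (log2 fold change -1.74 ± 0.26 SE, limma adjusted p = 0.000118). BHLHE40 (ENSG00000134107, chr3:4979116-4985323) had 1942, 1109, 1416 and 1217 with Combo and 3557, 2646, 3549.6 and 3146 in DMSO (log2 fold change -1.21 ± 0.24 SE, limma adjusted p = 0.00208). All Combo libraries were below all DMSO libraries in each of these genes. PAX5 had 445, 774, 555 and 430.2 with Combo and 1161, 1343, 914 and 981 in DMSO (log2 fold change -1.02 ± 0.20 SE, limma adjusted p = 0.00136), also apart. In the DLX family, 4 of 6 genes fell. DLX3 fell by 0.84 ± 0.18 (limma adjusted p = 0.00252), DLX2 by 0.83 ± 0.16 (adjusted p = 0.00108) and DLX6 by 0.75 ± 0.15 (adjusted p = 0.00126). ZIC4 fell by 0.95 ± 0.24 (adjusted p = 0.00916) and SIX5 by 0.63 ± 0.12 (adjusted p = 0.000799). With replicates paired, NKX2-2 (adjusted p = 0.0338, limma) and TBX6 (adjusted p = 0.00826) were called lower as well. TBX19 (adjusted p = 0.025), FOXL2 (adjusted p = 0.0352), OTX1 (adjusted p = 0.0392) and IRX5 (adjusted p = 0.0464) were among those then called higher. For Combo the numbers did not pair the samples by the rule used, and shares over all genes were not counted with pairing.

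**Figure D4:**
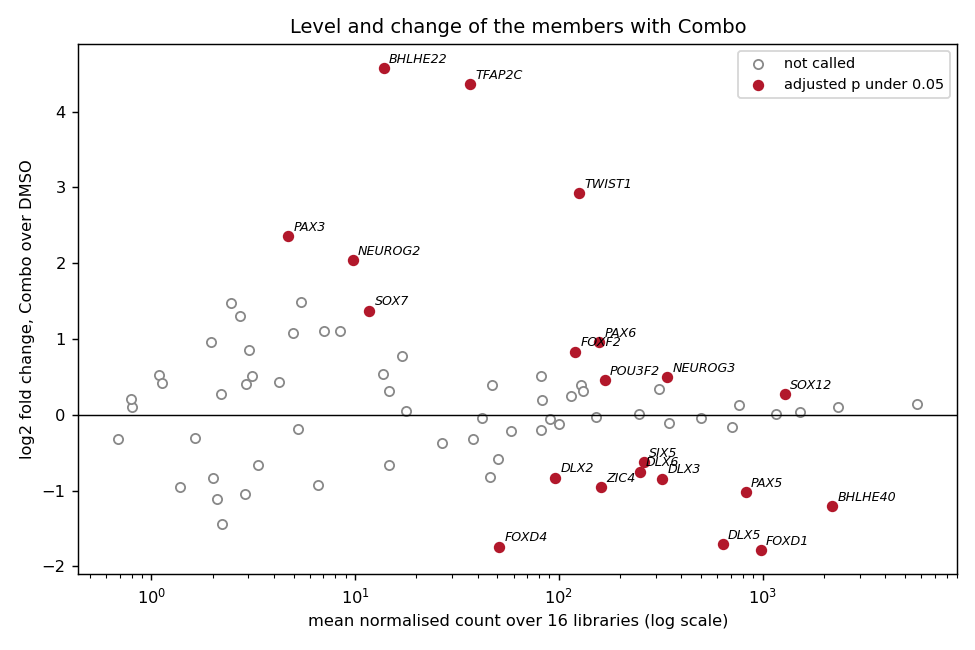
Log2 fold change of Combo over DMSO (vertical axis) against the mean normalised count over 16 libraries (horizontal axis, log scale) for 78 of the 80 members, with filled points for an adjusted p under 0.05. The rises above 2 on the log2 scale are at means up to that of TWIST1 (126), and falls are called from FOXD4 (51.03) up to BHLHE40 (2199).

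Combo was compared with each single inhibitor to see what the second compound added. Against iDOT1L, which differs from Combo by the EZH2 inhibitor, 5 of 80 members were called higher, 1 lower and 74 were not called, against 1.11% higher and 1.48% lower among all genes. The members' median was 0.26, beside 0.01 over all genes. TWIST1 had 271, 185, 279 and 287 with Combo and 42.3, 64.5, 63.5 and 63.9 with iDOT1L (log2 fold change 2.11 ± 0.21 SE, limma adjusted p = 8.83e-05). ZIC5 had 146, 142, 139 and 139 with Combo and 63.3, 85.1, 69.8 and 92.7 with iDOT1L (log2 fold change 0.87 ± 0.16 SE, limma adjusted p = 0.0059), and POU3F2 had 165, 199, 201 and 188 with Combo and 90.1, 103, 118 and 128 with iDOT1L (log2 fold change 0.78 ± 0.14 SE, limma adjusted p = 0.0059). The groups did not overlap in these genes. The other calls did not hold in every fit without 1 library. BHLHE22 was higher with Combo (2.59 ± 0.62, adjusted p = 0.0309), but was not called without iDOT1L 1, 3 or 4 or Combo 1, 2, 3 or 4 (highest adjusted p = 0.118). NEUROG2 was higher (1.67 ± 0.40, adjusted p = 0.0306), but was not called without iDOT1L 1 or 4 or Combo 2, 3 or 4 (highest adjusted p = 0.0925). DLX2 averaged 69.8 ± 9.31 with Combo and 110.3 ± 18.4 with iDOT1L (-0.65 ± 0.16, adjusted p = 0.0336), and was not called without iDOT1L 1, 3 or 4 or Combo 1, 3 or 4 (highest adjusted p = 0.131). The number called higher was 3 without iDOT1L 1, iDOT1L 4, Combo 3 or Combo 4, 8 on the deposited log2 scale and 9 with the stricter filter of 10 normalised counts in 4 libraries. Shares over all genes were not counted in those fits. TFAP2C averaged 92.9 ± 20.1 with Combo and 33.3 ± 4.51 with iDOT1L and was not called (1.44 ± 0.39, adjusted p = 0.0583), but was with a constant of 5 (1.34, adjusted p = 0.0141). FOXD1, DLX5 and DLX6, low in both groups, differed by -0.05, 0.45 and 0.06 and were not called.

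Against iEZH2, which differs from Combo by the DOT1L inhibitor, 6 of 80 members were called higher, 6 lower and 68 were not called, against 2.08% higher and 1.72% lower among all genes. The falls were again in the DLX and FOXD genes and PAX5. DLX5 had 369, 282, 312 and 368 with Combo and 1029, 847, 1046 and 608 with iEZH2 (log2 fold change -1.38 ± 0.15 SE, limma adjusted p = 3.43e-05). FOXD1 had 659.9, 370.1, 411 and 459 with Combo and 1400.2, 1536, 1439 and 1035 with iEZH2 (log2 fold change -1.53 ± 0.16 SE, limma adjusted p = 2.51e-05). Neither pair of groups overlapped. FOXD4 (-1.59 ± 0.26, adjusted p = 0.00109) and DLX6 (-0.94 ± 0.15, adjusted p = 0.000663) were lower too. DLX3 (-0.67 ± 0.18, adjusted p = 0.0386) was not called without iEZH2 1, 2 or 3 or Combo 2, 3 or 4 (highest adjusted p = 0.151), and PAX5 (-0.84 ± 0.20, adjusted p = 0.0194) was not called without iEZH2 1, 2 or 3 or Combo 1 or 4 (highest adjusted p = 0.075).

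The members higher with Combo than with iEZH2 included BHLHE22, TFAP2C, NEUROG3, FOXF2 and SOX18. BHLHE22 had 49.2, 48.3, 49.3 and 25.4 with Combo and 2.86, 0, 4.27 and 11.3 with iEZH2 (log2 fold change 3.42 ± 0.62 SE, limma adjusted p = 0.00248), and TFAP2C had 118, 68.8, 92.7 and 92.4 with Combo and 22.5, 12.05, 7.52 and 24.96 with iEZH2 (log2 fold change 2.52 ± 0.39 SE, limma adjusted p = 0.000696). Both genes were without overlap. NEUROG3 had 442, 390.1, 440.3 and 363 with Combo and 176, 180.1, 187 and 309 with iEZH2 (log2 fold change 0.97 ± 0.15 SE, limma adjusted p = 0.000537). SOX18 averaged 546 ± 34.02 with Combo and 376 ± 19.9 with iEZH2 (log2 fold change 0.54 ± 0.10 SE, limma adjusted p = 0.00361). FOXF2 (0.59 ± 0.15, adjusted p = 0.0276) was not called without iEZH2 1, 3 or 4 or Combo 1, 3 or 4 (highest adjusted p = 0.0893). PAX6, POU3F2 and TWIST1 did not pass here, with differences of -0.29, -0.32 and 0.73.

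**Figure D5:**
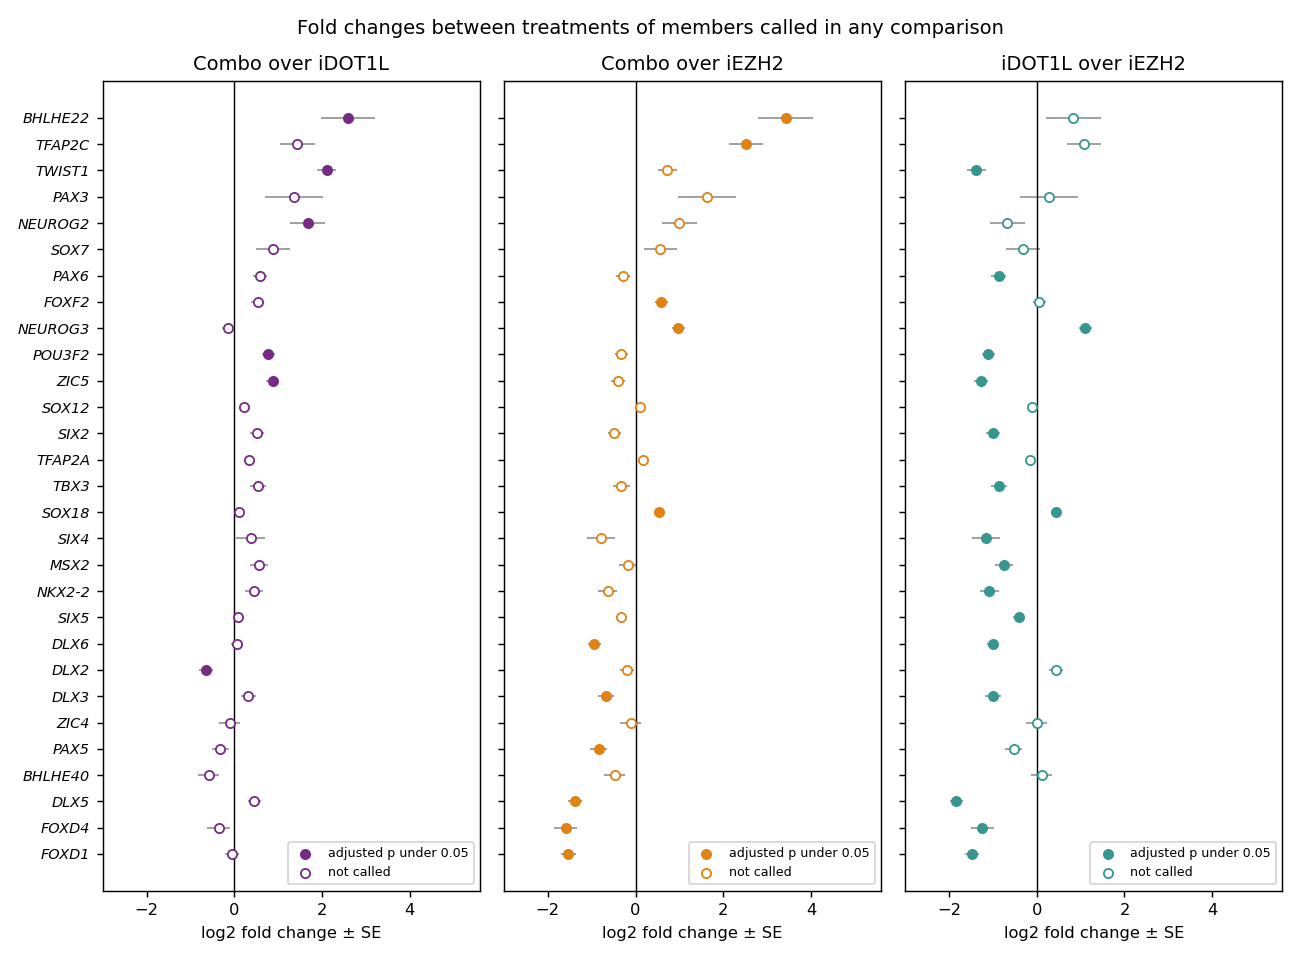
Log2 fold change with its SE (horizontal axis) of 29 of the 31 members called in any comparison (rows, in the order of the Combo change against DMSO), for Combo over iDOT1L, Combo over iEZH2 and iDOT1L over iEZH2, with filled points for an adjusted p under 0.05. TWIST1, ZIC5 and POU3F2 are filled on the right for Combo over iDOT1L, and 15 members are filled on the left for iDOT1L over iEZH2.

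The single inhibitors were also set against each other. With iDOT1L against iEZH2, 2 of 80 members were called higher, 15 lower and 63 were not called, against 3.88% higher and 3.06% lower among all genes. The members' median was -0.11, beside 0.00 over all genes. NEUROG3 had 493, 421, 441 and 439.9 with iDOT1L and 176, 180.1, 187 and 309 with iEZH2 (log2 fold change 1.11 ± 0.15 SE, limma adjusted p = 0.000108), and SOX18 was the other higher member (0.43 ± 0.10, adjusted p = 0.0125). DLX5 had 232, 236, 219 and 282 with iDOT1L and 1029, 847, 1046 and 608 with iEZH2 (log2 fold change -1.83 ± 0.15 SE, limma adjusted p = 1.38e-06). ZIC5 had 63.3, 85.1, 69.8 and 92.7 with iDOT1L and 216, 191, 176 and 171 with iEZH2 (log2 fold change -1.28 ± 0.16 SE, limma adjusted p = 4.4e-05). All 4 genes had groups without overlap.

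Homeobox factors SIX2, SIX4 and SIX5 were among the members lower with iDOT1L than with iEZH2. SIX2, which maintains nephron progenitors, had 131, 208, 166 and 181 with iDOT1L and 297, 385, 407 and 276 with iEZH2 (log2 fold change -0.99 ± 0.16 SE, limma adjusted p = 0.000481). SIX4, a factor of muscle development, had 81.1, 78.7, 63.2 and 39.4 with iDOT1L and 299, 140.1, 108 and 89.6 with iEZH2 (log2 fold change -1.16 ± 0.33 SE, limma adjusted p = 0.0374). It was not called without iDOT1L 3 or 4 or iEZH2 1 or 2 (highest adjusted p = 0.128), nor on the deposited log2 scale (adjusted p = 0.0513). SIX5 (-0.41 ± 0.12, adjusted p = 0.0345) was not called without iDOT1L 1, 2 or 3 or iEZH2 1, 3 or 4 (highest adjusted p = 0.0986). TBX3, a T-box factor of limb, heart and mammary gland, had 107, 119.6, 92.3 and 98.8 with iDOT1L and 227, 196, 146 and 199 with iEZH2 (log2 fold change -0.86 ± 0.19 SE, limma adjusted p = 0.00783), without overlap. POU3F2 (-1.10 ± 0.14, adjusted p = 6.93e-05), TWIST1 (-1.38 ± 0.21, adjusted p = 0.000436), PAX6 (-0.87 ± 0.16, adjusted p = 0.00239), NKX2-2 (-1.08 ± 0.22, adjusted p = 0.00367), FOXD1 (-1.47 ± 0.16, adjusted p = 1.88e-05), FOXD4 (-1.24 ± 0.26, adjusted p = 0.00544), DLX3 (-0.99 ± 0.18, adjusted p = 0.00144) and DLX6 (-0.996 ± 0.15, adjusted p = 0.000246) were also lower. MSX2 (-0.75 ± 0.21, adjusted p = 0.0318) was not called without iDOT1L 1, 3 or 4 or iEZH2 2, 3 or 4 (highest adjusted p = 0.132). With replicates paired, PAX5 (adjusted p = 0.00489, limma), DLX4 (adjusted p = 0.0215), OTX1 (adjusted p = 0.0472) and ZIC2 (adjusted p = 0.0392) were among those called lower as well, and DLX1 (adjusted p = 0.0158) and SOX4 (adjusted p = 0.0204) higher, which made 4 higher in all. Shares over all genes were not counted with pairing.

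No member departed detectably from additivity of the 2 inhibitors on the log2 scale. The interaction, Combo minus iDOT1L minus iEZH2 plus DMSO, was called for 0 of 22331 genes by limma (0%), with 848 genes and 9 of 80 members at an unadjusted p under 0.05. Paired by replicate it was again called for 0 members. Among the members its value ran between -1.59 and 1.997 (lowest adjusted p = 0.382). TWIST1 had an interaction of -0.09 ± 0.30, TFAP2C of -0.41 ± 0.55, BHLHE22 of 1.43 ± 0.88 and DLX5 of 0.78 ± 0.21. The lowest adjusted p was that of SOX18 (0.69 ± 0.14), which averaged 376 with iEZH2, 546 with Combo, 509 with iDOT1L and 565 in DMSO. TFAP2A had 0.51 ± 0.13. The wide errors of BHLHE22 and TFAP2C mean that sizeable departures in these genes would not have been detectable. The values of SOX18, DLX5 and TFAP2A were not called either, though their errors were smaller.

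Some members lie side by side in the genome, and their log2 differences from DMSO are set together here. DLX6 and DLX5 on chromosome 7 are 9352 bases apart, and both fell with iDOT1L and with Combo. DLX4 and DLX3 on chromosome 17 are 15045 bases apart. DLX3 fell with both, while DLX4 differed from DMSO by -0.29 with iDOT1L and -0.11 with Combo and was not called. DLX1 and DLX2 on chromosome 2 are 9761 bases apart. DLX2 fell with iEZH2 and Combo, and DLX1 differed by -0.06 and 0.13 and was not called. ZIC5 and ZIC2 on chromosome 13 point away from each other, 9862 bases apart. ZIC5 rose with iEZH2 and fell with iDOT1L, a fall that was not called in some fits without 1 library. ZIC2 differed by 0.11 with iEZH2 and -0.09 with iDOT1L and was not called. ZIC4 and ZIC1 on chromosome 3 overlap on opposite strands, so that some of their reads may not be told apart. ZIC4 fell with iDOT1L and Combo. With iEZH2 it was not called (-0.85 ± 0.24, limma adjusted p = 0.0583), though its difference was close to that with iDOT1L (-0.85 ± 0.24). ZIC1 differed by -0.18 with iDOT1L, -0.16 with Combo and -0.30 with iEZH2 and was not called. Whether neighbours differ from each other in their response was not tested.

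Among the members that were called in no comparison without pairing, 9 had a mean of at least 100 normalised counts. These were DLX1, DLX4, IRX3, IRX5, OTX1, SOX4, TFAP2E, ZIC1 and ZIC2, and over the 6 comparisons between groups their log2 differences ran between -0.41 and 0.41. IRX3 (ENSG00000177508, chr16:54283304-54286763), the most abundant member, averaged 5812 ± 468 with iDOT1L, 5445 ± 266 with iEZH2, 6173 ± 379.5 with Combo and 5604 ± 373 in DMSO. SOX4 averaged 2422 ± 266 with iDOT1L, 2088 ± 201 with iEZH2, 2541 ± 396 with Combo and 2341 ± 181 in DMSO. The other 40 such members had means of 0.689 to 90.6, and 26 of them were below 10, where only large changes could be detected. All measured members of the IRX, LHX, NEUROD, OTX, FOXC, FOXL and HAND families were uncalled in every comparison without pairing. With replicates paired, IRX5, OTX1 and FOXL2 were called for Combo against DMSO, and IRX4 for Combo against iEZH2 (paired adjusted p = 0.0483, limma). Of the 9 members with a mean of at least 100, DLX1, DLX4, IRX5, OTX1, SOX4 and ZIC2 were called in some comparison with pairing.

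Developmental factors of other families were followed alongside. Of 102 such genes listed (among them CDX, GATA, HMX, NR2F and OLIG genes), 60 were tested. With Combo against DMSO 11 were called higher and 8 lower (median log2 fold change 0.29, or 0.28 with genes at 0 in a group taken at the lowest detectable level), with iDOT1L against DMSO 7 and 9 (median 0.18), and with iEZH2 against DMSO 1 and 2 (median 0.14). The shares over all genes tested were 7.22% higher and 8.8% lower with Combo, 3.08% and 3.17% with iDOT1L, and 1.3% and 2.05% with iEZH2. The iEZH2 counts, 1.67% and 3.33% of the 60, lay near the all-gene shares. NR2F2, a nuclear receptor of venous and mesenchymal cells, rose with Combo (3.65 ± 0.49, adjusted p = 4.06e-05, limma), as did the oligodendrocyte factors OLIG2 (1.91 ± 0.36, adjusted p = 0.000891) and OLIG1 (1.83 ± 0.24, adjusted p = 5.09e-05). NR2F1, a close relative of NR2F2 with roles in the cortex, fell (-1.80 ± 0.15, adjusted p = 3.74e-07), as did HMX3, a homeobox factor of the inner ear (-1.53 ± 0.11, adjusted p = 8.9e-08). Of 13 PRC2 subunits and cofactors, 1 was called higher and 0 lower with iDOT1L, 0 and 0 with iEZH2, and 2 and 4 with Combo, all against DMSO. These counts of calls stand beside the same all-gene shares. With iEZH2, 4 of the 13 had an unadjusted limma p under 0.05, as had 3511 of all 22331 genes tested. JARID2, which guides PRC2 to its targets, fell with Combo (-0.50 ± 0.08, adjusted p = 0.000272), as did MTF2, a further cofactor (-0.33 ± 0.08, adjusted p = 0.0106), and EZH1, the other catalytic subunit, rose (0.50 ± 0.13, adjusted p = 0.0114). These 3 calls held in every fit without 1 library. The call of EZH1 with iDOT1L was lost without iDOT1L 1, 2, 3 or 4 or DMSO 1, 2 or 3 (highest adjusted p = 0.125). With Combo, the call of SUZ12 was lost without Combo 3 or 4 or DMSO 1 or 2 (highest adjusted p = 0.0908), that of RBBP7 without Combo 1, 3 or 4 or DMSO 1, 3 or 4 (highest adjusted p = 0.104) and that of LCOR without Combo 1, 3 or 4 or DMSO 1, 2 or 4 (highest adjusted p = 0.114).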

How the data were processed

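RNA-seq of 16 Molm14 libraries was used. The deposited values are on a log2 scale. The authors' table shows from its own values a variance-stabilising transformation of scaled counts in the form of DESeq2, with a common floor of 6.28 for a count of 0. The submitters' processing notes name kallisto, DESeq2 and hg38 without a version, and no annotation is stated. The extraction note, which places RNA isolation after a sort, conflicts with the 7-day treatment, and the treatment text was followed.

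The transformation was inverted to normalised counts. Of 22445 gene IDs, 20784 matched GENCODE 29 (16818 protein-coding), 1661 did not, and 0 columns belonged to other samples. Only 67.2% to 70.3% of low values gave whole reads (tolerance 0.1), so no count test was run. limma 3.58.1 in R 4.3.3 was fitted with trend and robust options to log2(normalised count + 1), with 4 group means over 16 libraries, for the 22331 genes above 1 in at least 4 libraries (12 residual degrees of freedom, median prior 6.8). P-values were BH adjusted over those genes in each of 7 comparisons, and a gene was called at an adjusted p under 0.05. The comparisons against DMSO share its libraries. The procedure was tested on simulated data. Alternatives were the deposited log2 scale, a constant of 5, a filter of 10 in 4 libraries, median re-centring, a replicate block and leaving out each library.

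Replicate numbers were taken to pair samples where the residuals of every same-numbered pair correlated above 0.1 over 12270 genes. This held for iDOT1L with iEZH2 (0.113 to 0.639), iDOT1L with DMSO (0.109 to 0.5) and iEZH2 with DMSO (0.198 to 0.581). The numbers are those of the titles. Source names of same-numbered libraries also share a number across all groups, Combo included, but what it stands for is not stated. Calls are without pairing unless pairing is named. Between iDOT1L, iEZH2 and DMSO, same-numbered libraries 1 and 2 were each other's best match, while libraries 3 and 4 were not. The replicate block was fitted over all 16 libraries, Combo included, so paired p-values rest on an uncertain pairing. Members called in any comparison, and members with a mean of at least 100, were named, except for a few genes that are not reported here but enter every count and fit. Members, lists and tests were chosen with earlier results of these data known. Shared 31-base words were counted between GENCODE 29 genes, and a gene with over 20% shared words was called uncertain. Per-kilobase levels use merged exon length. Promoters came from RefSeq (GRCh38.p14).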

Additional observations from a re-analysis of the deposited data

Results flagged for a closer look

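In 9 of 160 groups of 4 libraries (40 members in 4 groups), 1 library lay far from the other 3, with a gap whose share of the group's whole range was above Dixon's critical value for 4 samples at the 95% level. Chance alone gives about 1 in 20 such groups. BHLHE22 had 25.4 normalised counts in Combo 4, against 48.3, 49.2 and 49.3 in the other Combo libraries, and all 4 remained above every DMSO library. NEUROG2 had 5.99 in DMSO 4 and 3.26, 3.30 and 3.35 in the other DMSO libraries. NEUROG3 had 309 in iEZH2 4 and 176, 180.1 and 187 in the other iEZH2 libraries. Library iEZH2 4 was also the nearest of its group to the iDOT1L level in some members that were not flagged. DLX5 had 608 there and 847 to 1046 in the rest of the group, and FOXD1 had 1035 and 1400.2 to 1536. FOXD4, DLX6 and PAX5 were lowest there too. Other members went the other way, as TWIST1, PAX6 and POU3F2 were highest there and lower with iDOT1L. Whether this library departs as a whole was not tested. For TBX3 the value was 117 in DMSO 3 and 167, 167 and 173 in the rest of that group. TWIST1 had 42.3 in iDOT1L 1, against 63.5, 63.9 and 64.5 in the other iDOT1L libraries. With Combo, TWIST1 had 185 in Combo 2 and 271, 279 and 287 in the other libraries. ZIC2, which was called only with replicates paired, had 1374 in iEZH2 2 and 1695, 1727 and 1735 in the other iEZH2 libraries. ZIC4 stood high in 1 library of each of 2 groups, with 187 in iEZH2 1 against 116, 117 and 119.8 in the other iEZH2 libraries, and 162 in Combo 4 against 109, 111 and 116 in the other Combo libraries.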

How the results depend on the processing

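No named member reversed its direction where it was called. With the replicate block, which takes same-numbered libraries as pairs, 6 members were called lower for iEZH2 against DMSO (2 without pairing), 4 higher for iDOT1L against iEZH2 (2 without), 13 higher and 2 lower for Combo against iDOT1L (5 and 1 without), and 12 lower for Combo against iEZH2 (6 without). For the comparisons with Combo the numbers did not pair the samples by the rule used (lowest correlation 0.0362). Even so, same-numbered libraries 2 and 4 were each other's best match between Combo and each single inhibitor. For Combo against iDOT1L, 8 members were called higher on the deposited log2 scale and 9 with the stricter filter, which tested 16271 genes. Fits without 1 library gave 2 to 3 members higher and 7 to 11 lower for iDOT1L against DMSO, 4 to 7 and 1 to 5 for iEZH2 against DMSO, 9 to 13 and 10 to 11 for Combo against DMSO, 3 to 5 and 0 to 1 for Combo against iDOT1L, 4 to 8 and 4 to 7 for Combo against iEZH2, and 2 to 3 and 12 to 14 for iDOT1L against iEZH2. What moved these counts was not tested. Fits without a library, or with the stricter filter, also hold fewer libraries or genes. Shares over all genes were not counted under any of these settings, so whether calls over all genes changed alike is not known. The interaction was called for 0 members throughout. PAX3 did not pass the stricter filter, so it has no value there. Over all single genes followed, 1666 values under settings other than leaving out a library kept their side of the threshold, 52 passed it only there and 6 no longer passed. When a library was left out, 2879 kept it, 19 passed and 206 no longer passed. The values that kept their side include those not called to begin with, while losses can come only from called values. These totals therefore do not give the share of calls that held. Members under 10 normalised counts rest on a few reads, and only large changes were detectable there.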

Other observations

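Among the developmental factors of other families, more genes than those already described changed with Combo against DMSO. GATA6, a factor of endoderm and heart, rose (1.38 ± 0.31, adjusted p = 0.00399, limma), as did POU4F1, a factor of sensory neurons (1.20 ± 0.10, adjusted p = 4.37e-07), ATOH8 (1.81 ± 0.36, adjusted p = 0.00143) and TCF15, a factor of somites (1.25 ± 0.27, adjusted p = 0.00355). SP9, a factor of forebrain interneurons, fell (-1.85 ± 0.19, adjusted p = 2.8e-06), as did HMX2, which lies beside HMX3 and acts with it in the inner ear (-1.04 ± 0.12, adjusted p = 5.27e-06), and SHOX2, a factor of limb and sinus node (-0.96 ± 0.14, adjusted p = 9.1e-05). All 7 were called in each of the 8 fits without 1 Combo or DMSO library.

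A pair of uncalled members, chosen after their values were seen, were high in single libraries. SOX10, a factor of neural crest and glia, had 6.73, 8.65, 4.72 and 101 normalised counts with iEZH2 and 7.08, 6.03, 10.1 and 13.7 in DMSO. LHX9, a factor of gonad and limb, had 1.11, 0, 10.4 and 2.77 with iEZH2, 0, 0, 1.57 and 22.6 with Combo, and 0 in all 4 DMSO libraries.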
